A study of Mus musculus with 6 samples.

Results

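Gene expression in untreated cultured mouse sympathetic neurons was compared with expression in the ganglion such neurons come from. The values were taken from the 3 arrays labelled Control-1, Control-2 and Control-3, out of 6 arrays in the study, and cover all 19087 genes that the array annotation names singly. On each array, RNA of neurons kept for 24 h as controls carried the dye Cy5, and RNA of untreated postnatal day 5 sympathetic cervical ganglia carried the dye Cy3 and served as the common reference. The titles of the 3 control samples carry the letters IFN, and their group was taken from the channel and treatment labels, which name them as controls. The other 3 arrays held neurons treated with interferon-gamma and were not used for any result. Both sides of a ratio were untreated, and the labels used here do not give the neurons' age, the time in culture before the 24 h, the medium or the method of preparation. A log2 ratio above 0 means more RNA of a gene, relative to all other genes, in the cultured neurons than in the ganglion, and every value below is such a ratio or the fold it corresponds to.

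Sympathetic neurons are postganglionic cells that receive cholinergic input from the spinal cord and release noradrenaline, with peptides such as neuropeptide Y, onto their targets. In the ganglion each cell body is wrapped by satellite glia, axons run beside Schwann cells, and vessels, fibroblasts, macrophages and a capsule surround them. In the early postnatal ganglion glia, vessel and connective tissue cells still divide, whereas the neurons have left the cell cycle or are about to. A dissociated culture holds neurons without their targets, without preganglionic input and often with fewer of the surrounding cells, by an amount that depends on the preparation.

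The ratios were centred close to 0 on every array, with feature medians between 0 and 0.005, and individual features ran from -9.00 to 8.01. Across genes, which are not independent replicates, Pearson's r was 0.71 between control arrays 1 and 2, 0.67 between arrays 2 and 3 and 0.61 between arrays 1 and 3. Features carry no probe names, so where a gene is given with several features these may be repeats of 1 probe. The typical gene varied little, with a median SD over the 3 arrays of 0.194, quartiles of 0.115 and 0.322 and a 95th percentile of 0.665. The same sign appeared on all 3 arrays for 11469 genes, 60.1% of the total. No label states that separate cultures gave the 3 samples, and the p-values therefore reflect only the scatter among them, which could be technical.

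At an adjusted p below 0.05 (limma, mean ratio against 0), 1379 of 19087 genes (7.22%) were higher in the neurons and 2098 (11.0%) were lower, 18.2% in both directions together. All 3477 called genes had the same sign on the 3 arrays, which a call at this threshold requires, so the shared sign is no separate evidence. The median ratio of the genes called higher was 0.67, and that of the genes called lower was -0.76. Large differences were mostly losses, with 277 genes at least 2-fold higher and 668 at least 2-fold lower. At 4-fold or more the counts were 27 higher and 129 lower, and at 8-fold or more they were 3 higher and 22 lower. The median over all genes was -0.03.

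The counts depended on having 3 arrays. Without control array 1 the test called 169 genes higher and 419 lower, without control array 2 it called 172 and 510, and without control array 3 it called 641 and 1361. With the tenth of genes of lowest SD left out, calls over all genes rose to 2001 higher and 2920 lower. List counts given below for that setting include this general rise, and its part in them was not tested. Of 223 called genes followed singly through the alternatives, most of them described below, 148, 142 and 65 did not pass the threshold without control arrays 1, 2 and 3. The test leaves out the reference's own spread, and because the dyes were never swapped, a dye effect of a gene stays inside its ratio.

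**Figure D1:**
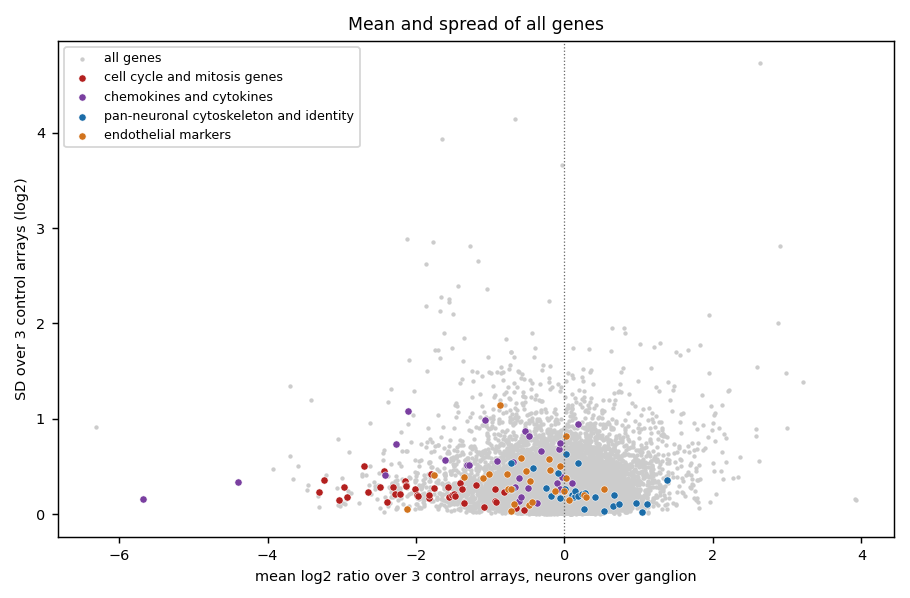
Mean log2 ratio of neurons over ganglion (horizontal axis) against the SD over the 3 control arrays (vertical axis, log2 units) for 19087 genes, with 4 gene lists coloured. All 39 cell cycle and mitosis genes (red) lie left of 0, chemokines and cytokines (purple) reach -5.68, and most pan-neuronal genes (blue) lie right of 0.

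The lowest ratios belonged to chemokines that draw leukocytes into tissue. Cxcl10, a ligand of the T cell receptor CXCR3, had ratios of -6.71, -6.97 and -5.26 on control arrays 1, 2 and 3, a mean of -6.31 ± 0.92 (SD, n = 3) and a level 79.6-fold lower in the neurons (95% interval 42.1 to 150, adjusted p = 0.00355). Cxcl2, a ligand of the neutrophil receptor CXCR2, had ratios of -5.55, -5.86 and -5.63 and was 51.3-fold lower (42.2 to 62.4, adjusted p = 0.00153). Cxcl1, another CXCR2 ligand, had ratios of -4.53, -4.65 and -4.0 and was 21.0-fold lower (15.9 to 27.8, adjusted p = 0.00232). All 3 arrays were far below 0 for these genes, with the ratios of Cxcl10 and Cxcl1 least negative on array 3. Cxcl3, a further CXCR2 ligand, had ratios of -3.22, -4.16 and -3.38, and Cxcl11, which RefSeq lists as a transcribed pseudogene in this mouse genome and whose product in other strains binds CXCR3, had -5.23, -3.18 and -2.70. Cxcl11 was the most scattered of the 5, and its adjusted p of 0.0170 became 0.0504 without control array 2. Array ratios give no level in either sample, and in bulk RNA a loss of cells of a type and less RNA per cell cannot be told apart.

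The sequences before the transcription starts of 4 of these chemokine genes are shown because the genes were among the lowest of all and carry a shared letter pattern. RefSeq (GRCm38.p6) gave a promoter entry for 8 of the 10 measured ligands of CXCR2 or CXCR3, Cxcl11 and Cxcl5 being without a match, and for 15306 measured genes. The pattern GGAANTTCC, core letters of a form bound by NF-kB in textbook accounts, reads the same on both strands. It was found within 250 bases before the start in 4 of the 8 ligand genes (50.0%) and in 151 of the 15306 genes (0.987%). These 4 were Cxcl10, Cxcl2, Cxcl1 and Cxcl3, and it was not found in Cxcl9, Cxcl15, Pf4 or Ppbp. Cxcl2, Cxcl1 and Cxcl3 lie close together on the same strand, and their windows share further letters after the pattern, such as ataaaagg. These genes may therefore not be separate observations. The ligand list was also written after the values were seen, so the difference between the shares cannot show an enrichment. The windows run from 170 bases before the start to the base before it, 5′ to 3′ on the gene's strand, with the match in capitals. They lie at chr5:92348890-92349059 (minus strand) for Cxcl10, and on the plus strand at chr5:90903729-90903898 for Cxcl2, chr5:90891075-90891244 for Cxcl1 and chr5:90785931-90786100 for Cxcl3.
Cxcl10: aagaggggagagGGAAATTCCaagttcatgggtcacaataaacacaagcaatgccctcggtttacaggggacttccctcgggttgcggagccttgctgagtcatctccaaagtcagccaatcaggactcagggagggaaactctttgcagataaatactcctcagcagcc
Cxcl2: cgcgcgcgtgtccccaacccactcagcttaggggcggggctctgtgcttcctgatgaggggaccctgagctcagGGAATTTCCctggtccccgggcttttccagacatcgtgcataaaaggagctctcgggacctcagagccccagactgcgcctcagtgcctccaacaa
Cxcl1: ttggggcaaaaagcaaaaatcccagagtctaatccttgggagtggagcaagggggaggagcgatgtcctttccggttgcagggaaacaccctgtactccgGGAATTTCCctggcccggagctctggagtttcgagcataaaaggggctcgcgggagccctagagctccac
Cxcl3: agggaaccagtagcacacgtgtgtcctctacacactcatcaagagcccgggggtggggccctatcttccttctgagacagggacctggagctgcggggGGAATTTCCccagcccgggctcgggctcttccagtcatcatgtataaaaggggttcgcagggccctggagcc
Each window held 1 match, which ended at position -150 in Cxcl10, -88 in Cxcl2, -62 in Cxcl1 and -64 in Cxcl3, with -1 the base before the start. The patterns reported here were kept from a wider set after their counts were seen, and a match is a description of the letters, not a site.

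In a list of CXCR2 and CXCR3 ligands written after the values were seen, 5 of 10 genes were lower, the 5 named above, and the count was 5, 4 and 6 without control arrays 1, 2 and 3. In a separate list of chemokines and cytokines, which holds Cxcl2 and Cxcl1 but not Cxcl10, 11 of 28 measured genes were lower (39.3%, against 11.0% of all genes) and 0 were higher, with a median ratio of -0.60. Ccl20, which attracts CCR6-bearing lymphocytes and dendritic cells, had ratios of -2.58, -2.71 and -1.95 and was 5.33-fold lower. The monocyte attractants Ccl2, with -2.68, -2.70 and -1.41, and Ccl7, with -2.90, -2.56 and -0.88, were 4.81-fold and 4.33-fold lower. Control array 3 was the least negative for all 3 genes. The eosinophil attractant Ccl11 averaged -1.61, the alarmin Il33 -1.31 and the macrophage growth factor Il34 -1.29, all 3 past the threshold. Cxcl9, the third CXCR3 ligand, had -0.46, 0.38 and 1.01 and Cxcl5 had -1.03, -1.39 and -0.30, and neither passed (adjusted p = 0.470 and 0.0545). The count of 11 was 4, 4 and 15 without control arrays 1, 2 and 3 and 18 without the genes of lowest SD, and the list medians were -0.83, -0.80 and -0.27 on arrays 1, 2 and 3.

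Peptide genes and an enzyme of xenobiotic metabolism made up much of the rest of the 12 lowest genes. Nts, the precursor of neurotensin, had ratios of -4.32, -4.06 and -3.39 and was 15.2-fold lower in the neurons. Grp, gastrin-releasing peptide, had -3.17, -4.36 and -3.56 and was 13-fold lower, and Penk, proenkephalin, had -3.23, -3.87 and -3.88 and was 12.6-fold lower. Cyp1a1, a cytochrome P450 induced through the aryl hydrocarbon receptor, had -3.78, -3.41 and -3.17 and was 11.0-fold lower. Pbk, a mitotic kinase, averaged -3.47 ± 0.25, and Cd83, a surface protein of activated antigen-presenting cells, averaged -3.32 ± 0.19 (SD, n = 3 each). Tnfaip6, a hyaluronan-binding protein of inflamed tissue, had -3.98, -4.22 and -2.04. Of the 12 lowest genes, 10 passed the threshold whichever array was left out, and the exceptions were Cxcl11 and Tnfaip6. The adjusted p of Tnfaip6 was 0.0816 without array 1 and 0.0533 without array 2.

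The 12 highest genes were a mixed group that no list defined. Ctla2a, which inhibits cathepsin L-like proteases, had ratios of 3.98, 3.77 and 4.04 and was 15.3-fold higher in the neurons (12.6 to 18.5, adjusted p = 0.00232). Ctla2b, its close relative, had 3.97, 3.74 and 4.05. The 2 genes are similar in sequence, so their features may read the same RNA, and the nearly equal values on each array count as 1 observation. Il13ra2, a decoy receptor for interleukin 13, had 2.73, 2.26 and 4.0, and Cntn5, a contactin of neuronal surfaces, had 2.02, 3.12 and 2.73. Anxa8, a membrane-binding annexin measured by 10 features, had 2.19, 1.96 and 3.6, and Cpne8, a calcium-dependent membrane-binding copine, had 2.16, 2.08 and 2.79. Ifit1, an interferon-induced protein that binds viral RNA, had 1.96, 2.69 and 2.18 in these untreated neurons. Every array was at or above 1.96 for these 7 genes.

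The other 5 of the 12 were less even. Dmp1, an acidic protein of bone and tooth matrix, had 3.95, 2.92 and 0.91, and Tdpoz9, of a TRAF and POZ domain family, had 2.29, 3.50 and 1.93. The transcripts 6330415B21Rik, 9330159H11Rik and A930011G23Rik, for which no role is given here, averaged 3.21, 2.98 and 2.37. Control array 1 was the lowest for these 3 transcripts, with 1.62, 1.36 and 1.94. Of the 12 highest genes, 6 passed the threshold whichever array was left out, namely Ctla2a, Ctla2b, Cntn5, A930011G23Rik, Cpne8 and Ifit1. The other 6, among them Il13ra2, Anxa8 and Dmp1, each failed without array 1, array 2 or array 3, with adjusted p between 0.0628 and 0.139 where they failed.

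**Figure D2:**
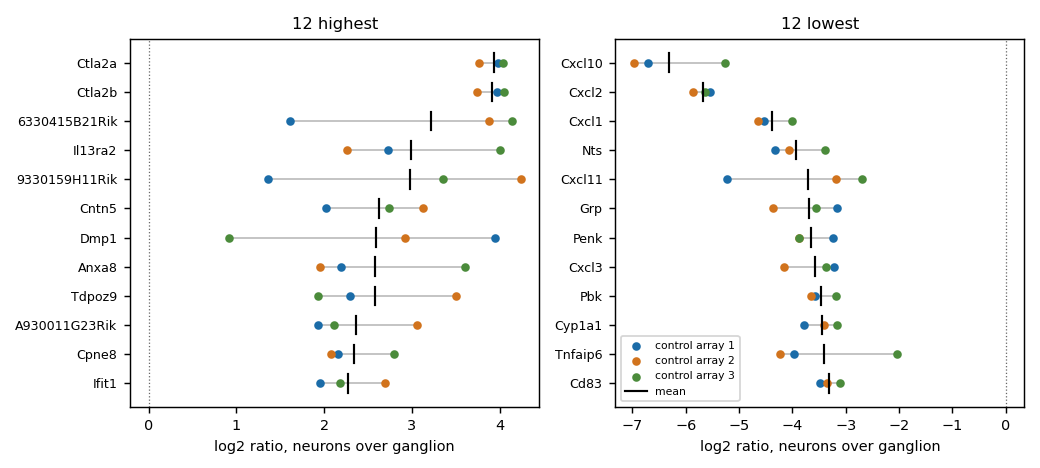
Log2 ratio of neurons over ganglion on each of the 3 control arrays (coloured points) with the mean (black bar) for the 12 highest and 12 lowest genes among those past the threshold. The chemokines Cxcl10, Cxcl2 and Cxcl1 lie at or below -4.0 on every array, and Ctla2a and Ctla2b sit together between 3.74 and 4.05.

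Of 12 measured noradrenergic genes, 2 were higher (16.7%, against 7.22% of all genes) and 3 were lower (25%, against 11.0%), the other 7 did not pass, and the median was -0.10. Th, the rate-limiting enzyme of catecholamine synthesis, had ratios of 0.38, 0.41 and -0.05, and Dbh, which makes noradrenaline from dopamine, had 0.39, 0.23 and -0.35. The noradrenaline transporter Slc6a2 had -0.21, 0.25 and -0.52, and the vesicular monoamine transporter Slc18a2 had -0.45, -0.23 and -1.04. None of these 4 passed (adjusted p from 0.0871 for Slc18a2 to 0.726 for Dbh), and control array 3 was the lowest for all 4. Cyb561, the electron carrier of the granule membrane that Dbh depends on, had 0.80, 1.35 and 0.76 and was 1.96-fold higher, and the degrading enzyme Maoa had 0.49, 1.07 and 0.73 and was 1.70-fold higher. Gch1, which starts the synthesis of the cofactor of tyrosine hydroxylase, averaged -0.50, Pnmt, which makes adrenaline, -0.77, and the amino acid transporter Slc7a5 -0.85, all 3 past the threshold. The list held 0 higher and 0 lower calls without control array 1 or 2 and 1 higher and 2 lower without array 3. A ratio near 0 does not separate a gene at a like share in both samples from a gene below detection in both, so the presence of the defining noradrenergic genes in the neurons could not be read from these values.

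Of 14 measured transcription factors of the sympathetic lineage, 2 were higher (14.3%, against 7.22% of all genes) and 1 was lower (7.14%, against 11.0%). The median was 0.16. Zfhx3, a zinc finger and homeodomain factor of differentiating neurons, had ratios of 1.18, 1.10 and 0.84 and was 2.06-fold higher, and Gata3, needed for noradrenergic identity, had 0.47, 0.66 and 0.43. Insm1, a zinc finger factor of newly formed neuroendocrine cells, had -1.06, -1.99 and -1.45 and was 2.83-fold lower. Phox2a, which switches on Th and Dbh, had -0.43, -0.27 and -1.02 (adjusted p = 0.0830), and Hand2 had 0.19, 0.06 and -0.70 (adjusted p = 0.607). Control array 3 was the lowest for Phox2a and Hand2 as well. Without control array 1 or 2 the list had 0 higher and 1 lower call.

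Several pan-neuronal genes were higher. Of 27 pan-neuronal genes 8 were higher (29.6%, against 7.22% of all genes) and 1 was lower, and the median was 0.19. Map1b and Map2, which stabilise axonal and dendritic microtubules, had 1.79, 1.24 and 1.11 and 1.0, 1.21 and 1.12, which correspond to 2.60-fold and 2.15-fold. The 3 features of Map2 differed, with means from 0.30 to 1.97. The neurofilament subunit Nefl had 1.06, 1.02 and 1.05 and was 2.06-fold higher, and Nefh, the heavy subunit of mature axons, had 0.99, 0.83 and 1.06 and was 1.95-fold higher. The kinesin heavy chains Kif5c and Kif5a averaged 0.74 and 0.67, the neuronal ubiquitin hydrolase Uchl1 0.66 and the tubulin-binding protein Stmn3 0.53. Like all genes called higher, these 8 were above 0 on all 3 arrays.

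The rest of the list lay between -0.73 and 0.42. Gap43, a growth cone protein, had -1.0, -0.49 and -0.62 and was 1.63-fold lower (adjusted p = 0.0321), and Dcx, a microtubule protein of young neurons, had -0.41, -0.42 and -1.34 and was the lowest of the list (adjusted p = 0.0807). Tubb3, the tubulin used as a general neuronal marker, had 0.21, 0.10 and -0.29 over 10 features (adjusted p = 0.978). Without control arrays 1, 2 and 3 the pan-neuronal list had 3, 4 and 7 genes higher and 0 lower. Its medians on arrays 1, 2 and 3 were 0.25, 0.38 and 0.02.

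Neuropeptide and granule genes spread widely. Of 21 measured, 6 were lower (28.6%, against 11.0% of all genes) and 3 were higher (14.3%, against 7.22%), with a median of -0.20. Beside Nts, Grp and Penk, the genes past the threshold included Pdyn, prodynorphin, with -1.26, -1.45 and -0.94, and Vip, vasoactive intestinal peptide, with -1.78, -1.22 and -0.50. Gal, galanin, had -0.19, -1.35 and -1.28 and did not pass (adjusted p = 0.0665). The granule protein Chga had -0.51, -1.05 and -0.61 and was 1.65-fold lower, whereas its relative Chgb had 0.12, 0.28 and -0.21. Npy, the main co-transmitter of sympathetic neurons, had 0.52, 0.22 and -0.12 (adjusted p = 0.364). Higher were Scg5, a chaperone of a prohormone convertase, at 0.68, the peptide-amidating enzyme Pam at 0.53 and Sst, somatostatin, at 0.44. Calcb, a calcitonin gene-related peptide, had 1.78, 0.36 and 1.64 and missed the threshold (adjusted p = 0.0514). The lower count was 4, 4 and 5 and the higher count 0, 1 and 0 without arrays 1, 2 and 3, and 1 was higher with 1 feature per gene.

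**Figure D3:**
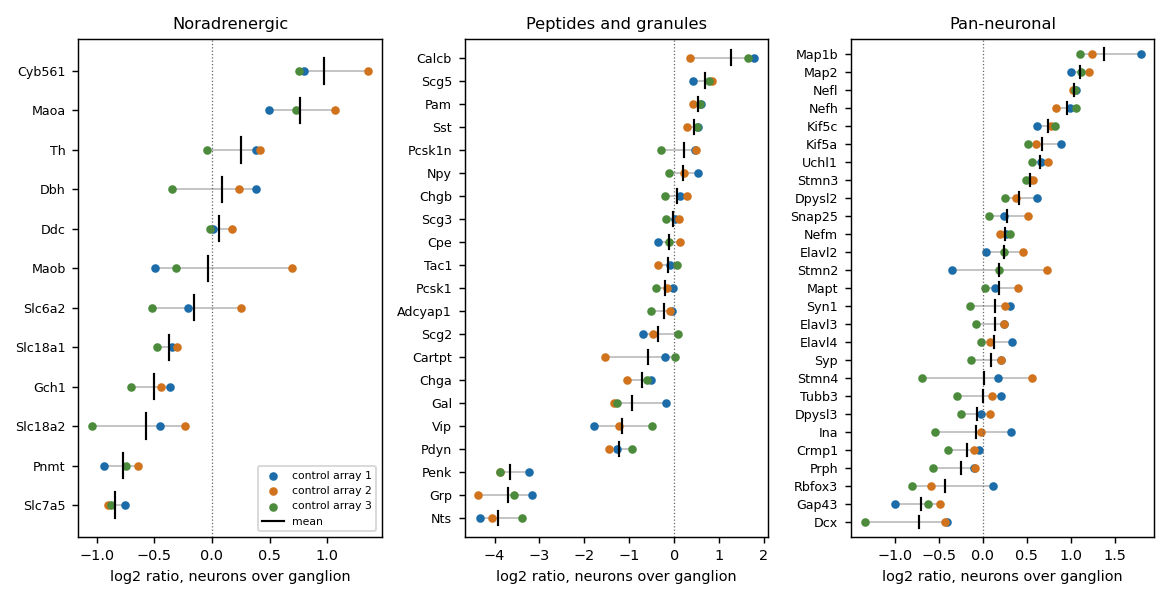
Log2 ratio of neurons over ganglion on the 3 control arrays (coloured points) with the mean (black bar) for every measured gene of the noradrenergic, peptide and pan-neuronal lists. Th, Dbh and Slc6a2 lie across 0, Nts, Grp and Penk stand apart below -3, and Map1b, Map2 and Nefl lie at or above 1.0 on each array.

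Among 14 cholinergic genes and nicotinic receptors 2 were higher and 2 were lower (14.3% each, against 7.22% and 11.0% of all genes). Slc5a7, the choline transporter of cholinergic terminals, had even ratios, with 1.41, 1.42 and 1.32, and was 2.61-fold higher (adjusted p = 0.00417). The muscarinic receptor Chrm2 had 1.27, 0.40 and 1.01. The nicotinic subunits Chrna4, with -0.75, -0.82 and -1.07, and Chrna7, with -0.49, -0.83 and -0.77, were lower. Chat, which makes acetylcholine, had 0.33, -0.18 and 0.27, and Chrna3, the main ganglionic nicotinic subunit, had 0.05, 0.47 and 0.16. Neither passed (adjusted p = 0.488 and 0.233). The 2 features of Chrna4 averaged -1.74 and -0.02.

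Among 15 genes of neurotrophin and GDNF family signalling 2 receptors were higher and 2 ligands were lower. These are 13.3% each, against 7.22% and 11.0% of all genes. Ngfr, the low-affinity neurotrophin receptor, had 0.69, 0.79 and 0.79 over 11 features and was 1.69-fold higher, and Ntrk3, the receptor of neurotrophin 3, had 0.71, 0.67 and 1.07. Artn, artemin, had -0.67, -1.96 and -1.18, and Nrtn, neurturin, had -0.65, -0.77 and -0.53. Ret, the shared signalling receptor of this ligand family, had 0.59, -0.13 and 0.13 (adjusted p = 0.418). The cholinergic list had 1 higher and 0 lower, 2 and 0, and 1 and 1 without control arrays 1, 2 and 3. The neurotrophin and GDNF list had 0 and 0 without array 1 or 2 and 2 and 1 without array 3.

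Of 24 voltage-gated channel genes 3 were higher (12.5%, against 7.22% of all genes). They were led by the sodium channel Scn9a with 0.91, 2.24 and 1.67, a 3.04-fold difference. The calcium channel subunit Cacna2d1 averaged 0.70 and the pacemaker channel Hcn3 0.63. Of 24 presynaptic genes 4 were higher (16.7%, against 7.22% of all genes). Pclo, a scaffold of the active zone, had 1.40, 2.07 and 1.94 and was 3.49-fold higher, and the calcium sensor of release Syt1 had 1.12, 0.76 and 0.46. Syn2, which tethers vesicles, averaged 0.76, and the fusion protein Vamp1 0.42. Of 18 postsynaptic genes 3 were higher (16.7%, against 7.22% of all genes). The adhesion molecule Nlgn1 had 1.91, 1.13 and 2.76, the kinase Camk2a 1.15, 1.10 and 1.12, and the scaffold Dlg2 0.55, 1.09 and 0.92. The 2 features of Camk2a differed, at 0.26 and 2.00. With control arrays 1, 2 and 3 left out in turn, the counts were 1, 0 and 3 for channels, 1, 1 and 6 for presynaptic genes and 1, 2 and 3 for postsynaptic genes. Without the genes of lowest SD 7, 8 and 6 of these 3 lists were higher and 1 of each was lower, and with 1 feature per gene 2 presynaptic genes were lower and 1 postsynaptic gene was higher.

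Of 27 axon guidance genes 4 were higher (14.8%, against 7.22% of all genes), all receptors. Lower were 2 (7.41%, below the 11.0% of all genes), both secreted ligands. Epha7 had 0.97, 2.01 and 2.23 and was 3.34-fold higher, the netrin receptor Unc5b had 1.83, 0.59 and 0.99, the slit receptor Robo1 0.60, 1.01 and 1.67 and the semaphorin co-receptor Plxna4 0.55, 0.75 and 0.39. The ligands Ntn1, netrin 1, with -0.81, -1.37 and -0.66, and Sema3f, with -0.75, -1.24 and -0.62, were lowest on array 2. The 2 features of Ntn1 averaged -1.87 and -0.03, and the means of the 3 features of Robo1 ran from 0.23 to 1.78. Of 30 genes linked to axon injury and regeneration 5 were lower (16.7%, against 11.0% of all genes) and 2 were higher (6.67%, against 7.22%). The adhesion molecule Chl1 had 0.95, 1.62 and 1.53 and was 2.58-fold higher, with 3 features from 0.59 to 2.30. The proteoglycan Sdc1 had -0.92, -1.65 and -1.29 and was 2.44-fold lower. Atf3, the injury-induced transcription factor, had -0.14, -1.77 and -1.20 and Jun had -0.33, -0.20 and -0.43, and neither passed (adjusted p = 0.0852 and 0.0888). Without control arrays 1, 2 and 3 the guidance list had 1, 0 and 2 higher and 0, 0 and 4 lower, and the injury list 1, 0 and 1 higher and 3, 2 and 4 lower. Without the genes of lowest SD the guidance list had 7 higher and 5 lower and the injury list 9 lower, and with 1 feature per gene the guidance list had 5 lower.

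Every measured gene of the cell cycle list was lower in the neurons. All 39 passed the threshold (100%, against 11.0% of all genes), the median ratio was -1.82, and the medians on control arrays 1, 2 and 3 were -1.78, -2.05 and -1.75. This list, like the others, was chosen with earlier results of these data known, so its share is a description and no separate evidence. The lowest were genes of mitosis. Hmmr, a spindle-associated protein, had -3.06, -3.52 and -3.35 and was 9.92-fold lower (7.91 to 12.4, adjusted p = 0.00232). Bub1, a spindle checkpoint kinase, had -3.29, -3.57 and -2.87 and was 9.49-fold lower, and Cenpe, a kinetochore motor, had -3.14, -3.11 and -2.87 and was 8.22-fold lower. Aurkb, the kinase of the chromosomal passenger complex, averaged -2.97 ± 0.29 and the proliferation marker Mki67 -2.65 ± 0.24 (SD, n = 3 each). No array of these 5 genes was above -2.37.

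Several genes of replication and of the start of the cycle were nearer to 0. Top2a, which untangles replicated DNA, averaged -1.80, Pcna, the sliding clamp, -0.93 over 10 features, and Ccne1, a cyclin of entry into replication, -0.65. The means of the 3 features of Top2a ran from -2.66 to -0.71. The smallest difference was that of the replicative helicase subunit Mcm4, at -0.52, -0.59 and -0.54, whose 2 features averaged -1.26 and 0.16. The count of 39 was 29, 32 and 37 without control arrays 1, 2 and 3, and 33 with 1 feature per gene.

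The promoters of the 3 lowest genes of the list are shown because the list as a whole was low and many of its promoters hold the letters CCAAT, a form bound by NF-Y in textbook accounts. RefSeq gave an entry for 34 of the 39 genes, and CCAAT stood on either strand within 250 bases before the start in 27 of them (79.4%), against 6026 of 15306 measured genes (39.4%) and 3 of 8 chemokine ligand genes (37.5%). TTTGAA, an element known from promoters of mitotic genes, stood in 9 of 34 (26.5%), against 15.6% of all. GGAANTTCC stood in 0 of 34. The windows below are written as for the chemokines, with CCAAT or its reverse complement ATTGG in capitals. They lie at chr11:40733438-40733607 (minus strand) for Hmmr, chr2:127831860-127832029 (minus strand) for Bub1 and chr3:135212393-135212562 (plus strand) for Cenpe.
Hmmr: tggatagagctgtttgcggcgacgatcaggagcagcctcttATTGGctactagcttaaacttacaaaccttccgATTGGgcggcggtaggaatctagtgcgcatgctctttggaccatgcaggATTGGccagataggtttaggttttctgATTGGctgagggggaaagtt
Bub1: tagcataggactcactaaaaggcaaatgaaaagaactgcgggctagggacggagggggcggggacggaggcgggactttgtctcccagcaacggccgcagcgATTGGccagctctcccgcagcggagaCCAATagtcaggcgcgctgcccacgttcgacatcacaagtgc
Cenpe: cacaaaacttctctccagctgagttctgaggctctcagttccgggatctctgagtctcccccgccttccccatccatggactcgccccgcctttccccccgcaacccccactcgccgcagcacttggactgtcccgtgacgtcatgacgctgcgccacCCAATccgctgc
Hmmr held 4 matches in its window, Bub1 held 2 and Cenpe held 1, and in the 7 printed windows no pattern overlapped another. The shares describe lists of unequal function and base composition and were not tested.

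Markers of satellite glia and Schwann cells were lower for 14 of 27 measured genes (51.9%, against 11.0% of all genes). Higher were 2 (7.41%, near the 7.22% of all genes), and the median was -0.51. Kcnj10, the potassium channel of satellite glia, had -1.92, -2.84 and -1.91 and was 4.67-fold lower. The myelin-associated protein Mal had -2.60, -2.41 and -1.36 and was 4.35-fold lower, and Fabp7, a fatty acid-binding protein of immature and satellite glia, had -1.65, -2.14 and -1.64 and was 3.50-fold lower. Dhh, the hedgehog ligand of Schwann cells, averaged -1.64, Apoe -1.20 over 10 features, and Sox10, the transcription factor of the whole glial lineage, -0.61. Sox10 was lowest on array 2, with -0.50, -0.86 and -0.47.

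Not all glial genes followed. Cdh19, a cadherin of Schwann cell precursors, had 0.55, 1.15 and 0.89 and was 1.82-fold higher, and the myelin gene Pmp22 had 0.45, 0.35 and 0.51. S100b had 0.68, -0.07 and 1.58 (adjusted p = 0.168). Gfap averaged -1.10 over 12 features whose means ran from -1.55 to 1.07, and Mbp averaged -1.23 over 12 features from -1.53 to 0.86, so features of these genes disagreed. The lower count was 4, 4 and 8 and the higher count 0 without control arrays 1, 2 and 3, and 9 were lower with 1 feature per gene.

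**Figure D4:**
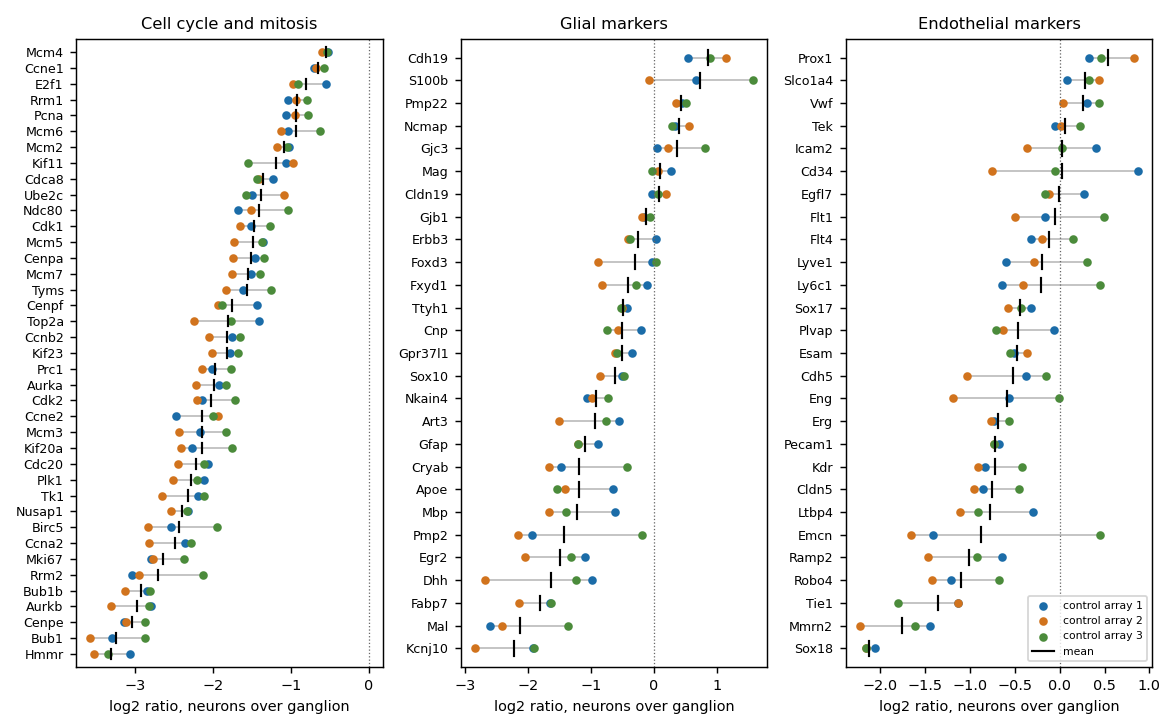
Log2 ratio of neurons over ganglion on the 3 control arrays (coloured points) with the mean (black bar) for all measured genes of the cell cycle, glial and endothelial lists. Cell cycle genes lie left of 0 on every array, from -0.55 for Mcm4 to -3.31 for Hmmr in the mean, while the glial and endothelial lists run from about -2.2 to above 0 and are often lowest on array 2.

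Of 27 endothelial markers 12 were lower (44.4%, against 11.0% of all genes) and 0 were higher, with a median of -0.47. Sox18, a transcription factor of endothelium, had -2.06, -2.16 and -2.16 and was 4.36-fold lower (3.69 to 5.16, adjusted p = 0.00289). Mmrn2, an endothelial matrix glycoprotein, had -1.44, -2.22 and -1.61, and the receptor kinase Tie1 had -1.13, -1.13 and -1.80. Pecam1 had -0.68, -0.73 and -0.73 over 11 features. Cdh5, the junctional cadherin of endothelium, had -0.37, -1.03 and -0.15 and did not pass (adjusted p = 0.123), nor did Emcn with -1.41, -1.65 and 0.45. Kdr averaged -0.72 over 20 features whose means ran from -2.04 to 1.83. The count of 12 was 2, 3 and 9 without control arrays 1, 2 and 3, and with 1 feature per gene 7 were lower and 1 was higher.

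Of 18 pericyte and smooth muscle markers 3 were lower (16.7%, near the 11.0% of all genes) and 0 were higher, and without the genes of lowest SD the counts were 7 lower and 1 higher. The 3 lower were the pericyte genes Vtn, with -1.14, -0.95 and -1.31, and Rgs5, with -0.47, -0.93 and -1.04, and the contractile gene Smtn, with -0.70, -1.24 and -0.73. Other pericyte markers lay at both ends of the list. Kcnj8 was the lowest, with a mean of -1.37, and Pdgfrb the highest, with 0.57, and neither passed. Acta2, smooth muscle actin, had -0.57, -0.41 and 1.30 over 14 features. Of 23 fibroblast and capsule markers 2 were lower and 2 were higher (8.70% each, near the shares of all genes), and without the genes of lowest SD 10 were lower and 5 higher. Cldn1, a tight junction gene of perineurial cells, had -0.90, -1.90 and -1.08, and Fbln1, a matrix glycoprotein, -0.46, -1.33 and -0.98. Thy1, also a surface protein of neurons, had 1.41, 0.82 and 0.84 and was 2.03-fold higher, and Dpt, dermatopontin, had 0.61, 0.74 and 0.59. Lum, lumican, had -0.68, -3.85 and -1.76 and did not pass (adjusted p = 0.0745).

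Of 40 collagen genes 6 were lower (15%, near the 11.0% of all genes) and 0 were higher, with a median of -0.38. Without the genes of lowest SD 14 of 39 were lower. Col26a1 had -1.43, -2.02 and -2.22 and was 3.71-fold lower, with 2 features at -2.98 and -0.80, and Col8a2 had -0.67, -1.40 and -1.07. The abundant fibrillar genes Col1a1, with 0.49, -0.71 and 0.65 over 12 features, and Col1a2, with 0.34, -0.68 and 0.42, fell on both sides of 0 with array 2 below it. Of 33 matrix glycoproteins and remodelling enzymes 6 were lower (18.2%, against 11.0% of all genes) and 5 were higher (15.2%, against 7.22%). In this list 13 were lower without the genes of lowest SD. The laminin chains Lamb1 at -1.44, Lama4 at -1.07 and Lamc1 at -0.95 were lower, although 4 features of Lama4 ran from -2.20 to 1.19. The crosslinking enzyme Lox had 1.41, 1.5 and 3.69 and was 4.6-fold higher, the elastase Mmp12 had 2.24, 1.76 and 1.33 and was 3.43-fold higher, and the collagenase Mmp13 had 0.99, 1.04 and 1.32. Timp1, an inhibitor of these enzymes, had 0.95, 0.43 and 1.81 (adjusted p = 0.0585).

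Medians of the other-cell lists differed between the arrays, and their order was not the same in all lists. Of the 11 lists of other cell types and matrix, 6 had their lowest median on control array 2 and 8 had their highest on control array 3. Of all 39 lists, 16 had their lowest median on control array 2. The fibroblast list had medians of -0.01, -0.42 and 0.24 and the matrix list -0.20, -0.81 and 0.07 on arrays 1, 2 and 3, and the pan-neuronal list had 0.25, 0.38 and 0.02. The part of this difference between arrays in any gene's ratio was not tested. With control arrays 1, 2 and 3 left out in turn, the pericyte list had 1, 1 and 5 lower, the fibroblast list 0, 1 and 3 lower and 0, 0 and 2 higher, the collagens 2, 1 and 4 lower, and the matrix list 0, 1 and 8 lower and 1, 2 and 4 higher.

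Markers of blood-borne cells and macrophages showed few calls. Of 24 macrophage markers 4 were lower (16.7%, against 11.0% of all genes) and 0 were higher. The complement chain C1qa had -1.38, -1.43 and -1.19 and was 2.52-fold lower, the antibody receptor Fcgr3 had -0.89, -0.70 and -0.39, the fractalkine receptor Cx3cr1 -0.37, -0.49 and -0.84 and C1qc -0.38, -0.61 and -0.50. The 2 features of Cx3cr1 averaged -1.13 and 0.002. Adgre1, the F4/80 antigen, had 0.09, 1.37 and 0.33, with 2 features at -0.51 and 1.70. Of 27 lymphocyte, neutrophil and mast cell markers 3 were lower (11.1%, near the 11.0% of all genes). Kit, the receptor of stem cell factor, had -1.80, -2.12 and -1.95 over 10 features and was 3.88-fold lower, Hdc, which makes histamine, had -1.54, -1.56 and -1.32 and was 2.78-fold lower, and the B cell receptor chain Cd79b averaged -0.64.

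Of 15 erythroid genes 2 were lower (13.3%, near the 11.0% of all genes). The alpha-globin gene Hba-a1 had -1.95, -0.92 and -1.62 and was 2.82-fold lower, while Hba-a2, of nearly the same sequence, had -0.60, -0.24 and -0.34 (adjusted p = 0.0752). The carbonic anhydrase Car2, which glia also use, averaged -1.21. Hbb-bt, beta-globin, had -1.96, -0.28 and -0.87. Of 23 striated muscle genes 3 were higher (13.04%, against 7.22% of all genes) and 4 were lower (17.39%, against 11.0%). They ran from the troponin Tnni1 at -0.69 to the myosin Myh2 at 1.18. Of 16 adipocyte genes 2 were higher (12.5%, against 7.22% of all genes) and 0 were lower. The 2 were the lipid droplet gene Cidea at 0.74 and the fatty acid transporter Cd36 at 0.41. Without control arrays 1, 2 and 3 the macrophage list had 1, 1 and 3 lower, the lymphocyte list 2, 2 and 2 and the erythroid list 1, 1 and 2. The muscle list had 1, 0 and 2 higher and 0, 0 and 1 lower, and the adipocyte list 0, 0 and 1 higher.

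Immediate early genes, which neurons and other cells switch on within minutes of a stimulus, were lower for 11 of 28 (39.3%, against 11.0% of all genes). Higher was 1 (3.57%, against 7.22%), and the median was -0.55. Egr1 had -0.97, -1.54 and -1.60 and was 2.59-fold lower, and Egr2, also a regulator of myelination, had -1.10, -2.06 and -1.32 over 10 features and was 2.81-fold lower. The growth-inhibiting gene Btg2 had -1.41, -1.61 and -1.22. Fos had -0.37, -1.37 and -1.06 over 11 features from -1.10 to 0.22. The phosphatase Dusp1 had 0.67, 0.97 and 0.77 and was 1.75-fold higher. The lower count was 2, 3 and 10 without control arrays 1, 2 and 3, and the higher count 0, 0 and 1, and 7 were lower with 1 feature per gene.

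Genes of the unfolded protein and integrated stress responses were lower for 15 of 29 (51.7%, against 11.0% of all genes). Higher was 1 (3.45%, against 7.22%), and the median was -0.61. Ddit4, an inhibitor of growth signalling, had -1.54, -1.69 and -1.74 and was 3.15-fold lower, and the cystine transporter Slc7a11 had -1.65, -1.5 and -1.28, with 4 features from -2.19 to 0.22. The serine synthesis enzymes Phgdh, with -0.93, -1.83 and -0.57, and Psat1, with -0.80, -1.26 and -0.81, were lower as well. Hspa5, the main chaperone of the endoplasmic reticulum, averaged -0.71, the transcription factors Xbp1 and Atf4 averaged -0.67 and -0.46, and Dnajb9, a co-chaperone, averaged 0.51. The lower count was 3, 2 and 7 without control arrays 1, 2 and 3, and the higher count 0.

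Of 16 genes of the BCL-2 family 5 were lower (31.25%, against 11.0% of all genes) and 1 was higher (6.25%, against 7.22%). With 1 feature per gene, however, only 1 was lower and 0 were higher. The BH3-only gene Pmaip1, Noxa, had -3.26, -2.83 and -1.03 and was 5.18-fold lower, and Bik, another, had -0.39, -1.59 and -1.35. The pore-forming Bok had -1.0, -1.70 and -0.52. Bcl2l11, Bim, had -0.55, -0.55 and -0.57, but its 3 features ran from -1.37 to 0.01. Among survival genes, Mcl1 had -0.72, -0.67 and -0.30 and was lower, and Bcl2 had 0.47, 0.70 and 1.07 over 12 features and was 1.68-fold higher.

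Of 18 genes of the apoptosome, caspases and their inhibitors 4 were lower (22.2%, against 11.0% of all genes) and 1 was higher (5.56%, against 7.22%). The inflammatory caspase Casp4 had -1.37, -2.25 and -1.52 and was 3.28-fold lower, Casp8, the caspase of death receptors, had -1.19, -1.44 and -0.45, and Apaf1, the scaffold that cytochrome c activates, had -0.91, -0.68 and -0.63. Birc5, survivin, which also acts in mitosis and is in the cell cycle list, averaged -2.44. Birc6, a large inhibitor of apoptosis, had 0.44, 0.70 and 1.12, and Cycs, cytochrome c, had -0.01, 0.08 and 0.20 (adjusted p = 0.535). With control arrays 1, 2 and 3 left out in turn, the BCL-2 list had 1, 0 and 3 lower and 0, 0 and 1 higher, and the caspase list 1, 2 and 5 lower and 0 higher.

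Of 38 interferon-stimulated genes 7 were higher (18.4%, against 7.22% of all genes) and 5 were lower (13.2%, near the 11.0% of all genes). Without the genes of lowest SD the higher count was 13, in a setting where calls over all genes also rose. Beside Ifit1, the higher genes were Ifit3 with 1.04, 1.31 and 1.0, Ifit2 with 0.72, 1.10 and 0.72, the immunoproteasome subunits Psmb8 with 1.15, 1.07 and 1.39 and Psmb9 with 1.02, 0.58 and 0.66, and the immunity-related GTPases Igtp with 1.03, 1.18 and 1.31 and Irgm2 with 0.80, 1.25 and 1.19. The lower genes were Cxcl10, the guanylate-binding protein Gbp3 at -1.16, the ubiquitin-like Isg15 at -0.91, Irf1 at -0.59 and Bst2 at -0.54. Iigp1 had 0.78, 1.84 and 6.09, and its mean of 2.90 rests on control array 3. Of 21 genes of antigen presentation 3 were higher (14.3%, against 7.22% of all genes) and 2 were lower (9.52%, against 11.0%). B2m, the light chain of MHC class I, had 0.75, 0.65 and 0.85 over 12 features, and the heavy chain H2-D1, a member of a family of similar sequences, had -0.42, -0.85 and -0.95.

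Of 14 complement genes 5 were lower (35.7%, against 11.0% of all genes) and 1 was higher (7.14%, against 7.22%). Among them were the protease C1s1 at -1.01 and the protective surface protein Cd59a at 0.52. Without control arrays 1, 2 and 3 the interferon list had 3, 4 and 8 higher and 1, 1 and 3 lower, the antigen presentation list 0, 1 and 3 higher and 0 lower, and the complement list 2 lower each time and 0 higher.

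Of 43 respiratory chain and ATP synthase genes 6 were higher (14%, against 7.22% of all genes) and 0 were lower. In this list 27 genes were above 0 on all 3 arrays and 6 were below 0 on all 3. Over all genes, 60.1% had the same sign on the 3 arrays, in either direction. The cytochrome oxidase subunits Cox6a1, with 1.01, 1.14 and 1.07, and Cox7a2, with 0.63, 0.69 and 0.72, were 2.11-fold and 1.60-fold higher, and Ndufa4 had 0.48, 0.78 and 0.82. Of 28 hypoxia and glycolysis genes 3 were higher (10.7%, against 7.22% of all genes). They were the phosphofructokinase Pfkp at 0.57, adrenomedullin, Adm, at 0.48 and the carbonic anhydrase Car9 at 0.41. The list medians of this group were 0.55, 0.00 and -0.04 on arrays 1, 2 and 3, so array 1 was the high one. Of 57 cytosolic ribosomal protein genes 10 were lower (17.5%, against 11.0% of all genes) and 1 was higher (1.75%, against 7.22%). Rpl4 had -1.40, -1.04 and -0.93, Rpl3 had -1.16, -0.80 and -0.91 and Rps23 had 0.46, 0.54 and 0.52.

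Of 29 cholesterol synthesis genes 3 were higher and 3 were lower (10.3% each, against 7.22% and 11.0% of all genes). They ran from the mevalonate kinase Mvk at -0.68 to the sterol oxidase Msmo1 at 0.58. Of 27 lysosome genes 2 were higher (7.41%, near the 7.22% of all genes), the cathepsin Ctsf at 0.62 and the autophagy receptor Sqstm1 at 0.79. In this list 1 was lower (3.70%, against 11.0% of all genes), the glucuronidase Gusb at -0.54. Of 27 heat shock and oxidative stress genes 2 were higher and 2 were lower (7.41% each, against 7.22% and 11.0% of all genes). Higher were the glutathione transferase Gsta4 at 1.09 and the metallothionein Mt3 at 0.74. Lower were the quinone reductase Nqo1 at -0.83 and the mitochondrial chaperone Hspd1 at -0.47. With control arrays 1, 2 and 3 left out in turn, the respiratory list had 1, 1 and 2 higher, the glycolysis list 0, 0 and 1 higher, the ribosomal list 0, 1 and 3 lower and 0 higher, the cholesterol list 0 in each direction, the lysosome list 0, 0 and 1 higher and 0 lower, and the stress list 0, 2 and 2 higher and 0, 0 and 1 lower.

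**Figure D5:**
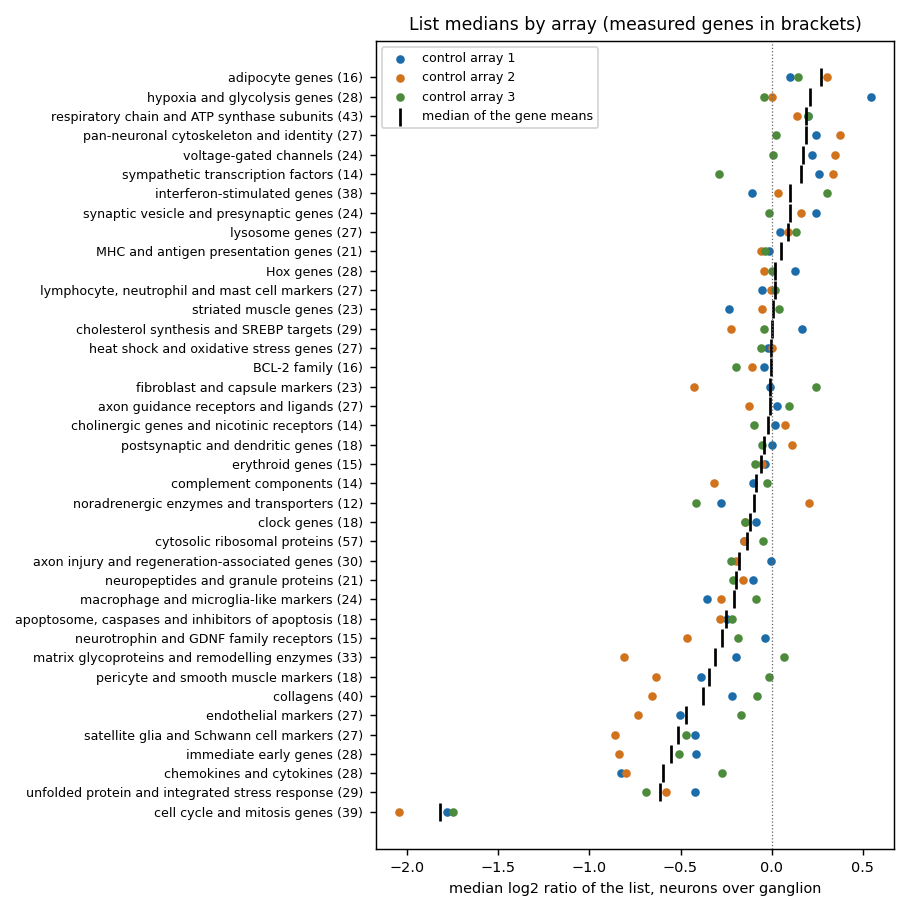
Median log2 ratio of neurons over ganglion for 39 gene lists on each control array (coloured points), with the median of the gene means (black bar) and the number of measured genes in brackets. The cell cycle list lies alone at -1.82, the stress response, chemokine, immediate early, glial and endothelial lists follow between -0.61 and -0.47, and the pan-neuronal list lies at 0.19.

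A small set of genes varied far more between the arrays than the rest. The SD exceeded 1 for 266 genes, of which 16 were called, and the array farthest from the other 2 was control array 3 for 137 of them, array 1 for 84 and array 2 for 45. The largest SD was that of 1700066O22Rik, with 0.76, -0.86 and 8.01. The pheromone receptor gene Vmn2r10 had 1.37, 2.06 and -5.44, the rod phosphodiesterase gene Pde6a -0.33, 1.46 and -6.07 and 4930447J18Rik -3.96, 0.55 and 3.29. The glutamate receptor gene Grin2a had -5.46, -0.52 and -0.39, the glycine transporter gene Slc6a5 -5.07, -0.13 and -0.13, and Ric1 -0.14, 0.81 and -4.47. Together with Iigp1 these are the 8 genes of largest SD. None passed the threshold, and each was measured by 1 feature. Apart from 4930447J18Rik, whose 3 values all lay far from each other, a single array stood apart in each, either array 1 or array 3. Features of the same gene also disagreed at times. Of the 1510 called genes read by several features, 165 (10.9%) included at least 1 feature whose own mean ran against the call.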

How the data were processed

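The authors deposited 1 log2 ratio per array feature, Cy5 (neurons) over Cy3 (ganglion), read with Agilent Feature Extraction per the submitters' processing notes (version not given in the sources used here), already centred per array. Total RNA came from Trizol extraction and was labelled with a 2-colour Agilent kit, per the labels' protocols. The log2 scale was inferred from the range, and the direction from the dyes. With it, the interferon-gamma minus control differences of Irf1 (2.29), Tap1 (3.82) and Psmb9 (3.27) are positive; those arrays served only this check. Signal and background were not analysed here, so dim genes can sit near 0 and their folds can be understated. Of 45220 features, 33653 had 1 gene (33517 matched to RefSeq GRCm38.p6 by gene number), 56 several and 11511 none. Exact zeros, 309 to 551 per array against 35.8 to 39.3 features at each neighbouring value, were kept.

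Features were averaged per gene and array, giving 19087 genes, of which 8343 had 2 or more features. The mean of the 3 control arrays was tested against 0 with limma 3.58.1 in R 4.3.3 (lmFit, eBayes, two-sided), p-values adjusted over all genes by Benjamini-Hochberg and called below 0.05. Intervals are at 95%. The number of arrays limits the precision. On simulated data the test recovered known sizes. False calls stayed near the nominal rate under the model's own variances and exceeded it with the moderated ones. Named genes are the 12 highest and 12 lowest called ratios, the 8 highest SDs and members of 39 lists with 1077 entries (987 measured, lists overlap), of which the extremes and members of known role are given. The members and lists were chosen with earlier results of these data known, and 5 further lists were written after values were seen. Alternatives were quantile normalization, scaling, re-centring, median or 1 feature per gene, zeros as missing, a robust variance model, array weights, a filter on low SD and leaving out each array.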

Additional observations from a re-analysis of the deposited data

How the results depend on the processing

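No paired analysis was possible because each array sets 1 group against the reference. Leaving out 1 array gave 169 to 641 genes higher, against 1379 with all 3, and 419 to 1361 lower, against 2098. Under the other 9 alternatives the counts stayed within 1.5 times, from 1232 to 2001 higher and 1921 to 2920 lower. The largest were those without the genes of lowest SD. That filter selects genes by the same SD that enters the test, and the variance model was fitted again afterwards. Its counts are therefore not independent of the test. Re-centring gave 1598 higher and 1921 lower and array weights 1541 and 2268. The cell cycle median, -1.82, was -2.02 with the median over features and -1.99 with 1 feature per gene. With 1 feature per gene, Bcl2l11 was at 0.012, Gfap at 1.07 and Kdr at 1.22 (adjusted p = 0.0483), opposite to their means, as their features disagree. Leaving out 1 array moved Vmn2r10 between -2.04 and 1.71, the highest without control array 3 (adjusted p = 0.0156). Of 223 called genes followed singly, 36 did not pass with 1 feature per gene, 5 with the median over features, 4 after re-centring, 3 after quantile normalization, 2 with array weights, 1 after scaling, 1 of the 204 tested without the genes of lowest SD, and 0 with zeros missing or the robust model. A filter on dim features was not run, since signal and background were not analysed here. Small counts also moved. Without the genes of lowest SD, 5 antigen presentation genes, 5 lymphocyte, neutrophil and mast cell markers, 4 neurotrophin and GDNF genes, 4 cholinergic genes and 3 glycolysis genes were lower, and 4 lysosome and 5 heat shock genes were higher. Re-centring gave 5 postsynaptic and 4 adipocyte genes higher.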

Other observations

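Lists written after the values were seen add more genes low in the neurons, and their counts describe genes already noticed. Of 34 measured genes of the NF-kB response 19 were lower (55.9%, against 11.0% of all genes) and 0 were higher. The median ratio was -0.91. The adhesion molecule Icam1 had ratios of -2.89, -3.39 and -2.93 over 11 features and was 8.40-fold lower in the neurons than in the ganglion. Tnfaip3, an inhibitor of NF-kB signalling, had -2.79, -3.11 and -2.91, and the receptor Tlr2 had -3.37, -3.20 and -2.16 over 10 features. Vcam1 averaged -2.31, with 3 features from -3.87 to -0.65, the NF-kB subunit Rel -2.01 and the inhibitor Nfkbia -1.62. The count of 19 was 12, 13 and 18 without control arrays 1, 2 and 3. Of the genes of the Notch pathway, which acts in glia and vessels among other cells, 10 of 26 were lower (38.5%, against 11.0% of all genes). In the same pathway 1 was higher (3.85%, against 7.22% of all genes). Its target genes were the lowest, with Hes5 at -3.12, -2.81 and -2.69, Hes1 at -2.41, -2.86 and -2.41, Nrarp at -1.76, -2.77 and -2.47 and Heyl at -1.68, -2.26 and -1.83, while the ligand gene Dll3 had 0.74, 0.66 and 0.42. The Notch count was 5, 5 and 6 lower and 0, 0 and 1 higher without control arrays 1, 2 and 3, and 6 were lower with 1 feature per gene.

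Of 9 genes around the aryl hydrocarbon receptor 4 were lower (44.4%, against 11.0% of all genes), with Cyp1b1 at -1.80, -1.85 and -0.85 beside Cyp1a1. The receptor genes Ahr and Arnt averaged 0.22 and 0.11 (adjusted p = 0.261 and 0.537). Retinoid genes were split, with 4 of 19 higher (21.1%, against 7.22% of all genes) and 3 lower (15.8%, against 11.0%). Cyp26b1, which degrades retinoic acid, had 2.85, 1.92 and 1.61 and was 4.37-fold higher, and Crabp1, which binds it in the cytosol, had 2.19, 2.70 and 1.18 and was 4.07-fold higher. The vitamin A receptor Stra6 averaged 1.16 and the retinaldehyde dehydrogenase Aldh1a1 0.66, while the plasma carrier Rbp4 averaged -1.15. Of 28 Hox genes, which mark position along the body axis, 5 were higher (17.9%, against 7.22% of all genes) and 2 were lower (7.14%, against 11.0%). Without the genes of lowest SD these counts were 8 and 5. Hoxc5 had 0.73, 0.85 and 0.94, Hoxd4 1.49, 0.76 and 0.60 and Hoxd1 -1.43, -1.0 and -2.57. Of 18 clock genes 1 was lower (5.56%, against 11.0% of all genes), the repressor Cry1, at -0.85, -0.94 and -0.81. Without control arrays 1, 2 and 3 the receptor list had 1, 1 and 3 lower, the retinoid list 1, 1 and 3 higher and 2, 0 and 1 lower, the Hox list 0, 0 and 4 higher and 0, 1 and 3 lower, and the clock list 0, 0 and 1 lower.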
